A study of Mus musculus with 8 samples.

Results

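The Hox genes encode homeodomain transcription factors that give cells of the embryo their position along the head-to-tail axis. All 39 protein-coding mouse genes named Hoxa, Hoxb, Hoxc or Hoxd with a number were taken, out of 21938 protein-coding genes of the annotation, together with the accessible regions (peaks) in each of the 4 clusters and the 50 kb on either side. These windows held 65 of 152984 peaks in the WT list, 54 of 174407 in the mutant list and 43 of 106974 in the het list. Members were chosen by name and position, with earlier results of these data known.

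The peaks come from ATAC-seq, in which Tn5 transposase cuts and tags open DNA, of granule neuron progenitors (GNPs) purified on a percoll gradient from the cerebella of mouse pups at postnatal day 7. The labels give 3 groups by genotype of Chd7, a chromatin remodelling enzyme: wild type (WT, 3 libraries), mutant (3 libraries) and het (2 libraries), on a strain written C56Bl6/J. Per the study, WT pups were Chd7 f/f without Cre, het pups Atoh1-Cre::Chd7 f/+ and mutant pups Atoh1-Cre::Chd7 f/f, so that every group carried at least 1 floxed allele. Atoh1-Cre acts in rhombic lip derivatives including granule cells, with less recombination in the posterior lobe, and the WT and mutant libraries were technical replicates. Each list was called on the pooled libraries of its group, so there is 1 value per genotype and no replicate error, and no difference between genotypes could be tested. Peak lists do not measure the loss of Chd7 itself, so the genotype labels were not checked here. The question for these loci was whether loss of Chd7 changed which elements of the Hox clusters were accessible, and how tall they were.

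Hox genes sit in 4 clusters, and their order along the chromosome follows the order of their expression domains in the embryo, with group 1 genes most anterior and group 13 genes most posterior. Polycomb complexes keep the clusters silent where they are not used, CTCF divides them into domains, and retinoic acid activates the anterior genes in the hindbrain. The cerebellum arises from the rostral part of the hindbrain, and the rhombic lip that gives rise to GNPs lies ahead of most Hox expression.

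HoxA lies at chr6:52155590-52260880 (11 genes, minus strand), HoxB at chr11:96194316-96368256 (10 genes, plus strand), HoxC at chr15:102921103-103036852 (9 genes, plus strand) and HoxD at chr2:74668310-74765142 (9 genes, plus strand), in mm10 (GRCm38). The strongest WT peak of each window that lay more than 1 kb from any annotated start is shown first, because 3 of these 4 lie in the flanks, outside the genes. Each line gives 201 bases around the summit on the plus strand, with CpG dinucleotides in capitals.
HoxA: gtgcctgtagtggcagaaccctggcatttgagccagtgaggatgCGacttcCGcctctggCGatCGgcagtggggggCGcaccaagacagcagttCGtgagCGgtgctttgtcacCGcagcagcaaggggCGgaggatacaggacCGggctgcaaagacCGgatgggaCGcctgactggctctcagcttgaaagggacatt
HoxB: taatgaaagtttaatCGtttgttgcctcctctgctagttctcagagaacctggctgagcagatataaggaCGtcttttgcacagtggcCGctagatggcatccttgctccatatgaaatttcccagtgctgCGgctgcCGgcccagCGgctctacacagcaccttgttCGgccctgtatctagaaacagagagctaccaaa
HoxC: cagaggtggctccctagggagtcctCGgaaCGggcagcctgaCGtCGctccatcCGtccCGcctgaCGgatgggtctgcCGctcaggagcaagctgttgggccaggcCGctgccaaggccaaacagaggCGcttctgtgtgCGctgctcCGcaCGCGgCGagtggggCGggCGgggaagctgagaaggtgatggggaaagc
HoxD: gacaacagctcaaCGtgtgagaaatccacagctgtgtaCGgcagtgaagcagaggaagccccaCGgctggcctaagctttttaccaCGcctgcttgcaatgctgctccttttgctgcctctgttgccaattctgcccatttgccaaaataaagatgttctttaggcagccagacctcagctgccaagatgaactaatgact
The HoxA sequence (chr6:52305986-52306186) and the HoxC sequence (chr15:103085899-103086099) hold 12 and 17 CpGs. The HoxB sequence (chr11:96278861-96279061) and the HoxD sequence (chr2:74795700-74795900) hold 7 and 4.

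Promoters are shown for a pair of posterior genes that are both rich in CpG, because only the second had a peak in any list. The lines give the 250 bases before the RefSeq start (GRCm38.p6) on the coding strand, with CpGs in capitals. RefSeq promoters matched 22 of the 39 genes.
Hoxa13 upstream: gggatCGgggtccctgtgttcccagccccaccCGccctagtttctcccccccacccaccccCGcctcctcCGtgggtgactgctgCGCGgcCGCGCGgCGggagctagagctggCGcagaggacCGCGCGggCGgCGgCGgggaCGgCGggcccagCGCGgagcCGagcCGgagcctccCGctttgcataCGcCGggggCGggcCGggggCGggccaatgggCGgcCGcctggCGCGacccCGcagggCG
Hoxd13 upstream: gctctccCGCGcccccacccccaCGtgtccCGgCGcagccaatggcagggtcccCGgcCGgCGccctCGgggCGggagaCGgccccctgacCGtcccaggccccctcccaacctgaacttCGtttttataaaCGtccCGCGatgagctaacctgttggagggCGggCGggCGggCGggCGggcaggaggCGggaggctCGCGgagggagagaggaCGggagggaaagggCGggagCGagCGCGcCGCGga
The Hoxa13 sequence (chr6:52260881-52261130, minus strand) is 80.0% GC with 35 CpGs, and the Hoxd13 sequence (chr2:74667975-74668224, plus strand) is 74.4% GC with 31. Both genes encode posterior factors known for limb and genital tract patterning.

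Promoters of the marker genes of granule progenitors were accessible in each list, as were those of most protein-coding genes. All 8 fixed markers of the cell type (Atoh1, Barhl1, Pax6, Zic1, Zic2, Neurod1, Gli1 and Mycn) had a peak within 1 kb of a start in each list, with heights of 36 to 96 tags at the summit in WT, 29 to 94 in mutant and 34 to 168 in het. Height is the number of extended tags over the summit of a peak. Over all protein-coding genes 70.1% had such a peak in WT, 70.8% in mutant and 68.1% in het. Their median height in WT was 52 tags. In the WT list, promoters of other cell types' markers held peaks at 3 of 4 Purkinje genes, 3 of 3 GABAergic interneuron genes, 4 of 5 glial genes, 1 of 3 microglial genes, 2 of 2 endothelial genes and 2 of 3 caudal hindbrain genes, which include Barhl1. Heights there were 45 to 50 tags for Purkinje, 16 to 36 for interneuron and 18 to 37 for glial genes. They were 16 for the microglial gene, 10 to 20 for endothelial genes and 32 to 36 for caudal hindbrain genes. Pcp2, Sox10, Cx3cr1 and Aif1 had no promoter peak in any list. A promoter can be open without the gene being expressed, and the part of other cells in the Hox peaks was not tested. Tags after filtering numbered 50394313 in WT, 51030229 in mutant and 30923002 in het. The het list was called from another alignment folder with reads shifted and extended to 200 bp, against fragments of 90 bp in WT and 88 bp in mutant, so het heights were not compared with the others, and differences of the het list in genotype and in processing cannot be told apart. Tags were shorter in mutant, at 76 bp, than in WT and het.

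Counting peaks of any strength, the WT list held more per length inside the Hox clusters than over the chromosomes. In the mutant list the figures were close. Inside the 4 clusters, without the flanks, the WT list had 49 peaks, or 9.96 per 100 kb, against 5.61 per 100 kb over the assembled chromosomes. The mutant list had 33 peaks inside the clusters, 6.71 per 100 kb against 6.4 over the chromosomes. With -log10 q (the significance given by the peak caller) at 5 or above, 4.88 WT peaks per 100 kb were left inside the clusters, against 3.48 over the chromosomes. The same cut left 4.88 mutant peaks per 100 kb inside the clusters, against 4.02. Each list kept 24 peaks there, so at this cut the lists did not differ in density inside the clusters. The flanks held 16 WT peaks, 21 mutant peaks and 14 het peaks, or 4, 5.25 and 3.5 per 100 kb.

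Strength was read from the -log10 q value that the peak caller gave each summit. The median was 4.72 for the 49 WT peaks inside the clusters and 6.24 for the 16 in the flanks, beside 6.66 for all WT peaks. In the mutant list the medians were 7.10 inside the clusters and 7.17 in the flanks, beside 6.73 for all mutant peaks, so that the typical mutant peak here was no lower than in its list. In the het list they were 5.64 and 6.39, beside 9.89. Peaks with a -log10 q of at least 10 made up a smaller share inside the clusters than of the whole list in all 3 lists. Only 4 of the 49 WT peaks inside the clusters (8.16%) reached a -log10 q of 10, against 36.7% of all WT peaks. In the mutant list 8 of 33 (24.2%) did, against 36.7%, and in the het list 4 of 29 (13.8%) did, against 49.7%. The strongest peak inside a cluster ranked at 80.0 in WT, where rank is the percentage of the list at or below its -log10 q, at 84.6 in mutant and at 76.3 in het.

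Peaks inside the clusters were also rich in GC and CpG and stood on a raised local background. In the 301 bases around the summit the median GC content was 62.5% in WT and the median CpG count 20, beside 50.2% and 4 for all WT peaks. The local background, implied by height and fold enrichment, exceeded the level set by the whole genome at 47 of 49 WT peaks inside the clusters (95.9%), at 8 of 16 in the flanks (50%) and at 78.2% of all WT peaks. In the mutant list it did so at 32 of 33 peaks inside the clusters, 11 of 21 in the flanks and 77.7% of all peaks. At a given height the caller gives a lower -log10 q on a higher background, and the part of this in the low values was not tested.

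**Figure D1:**
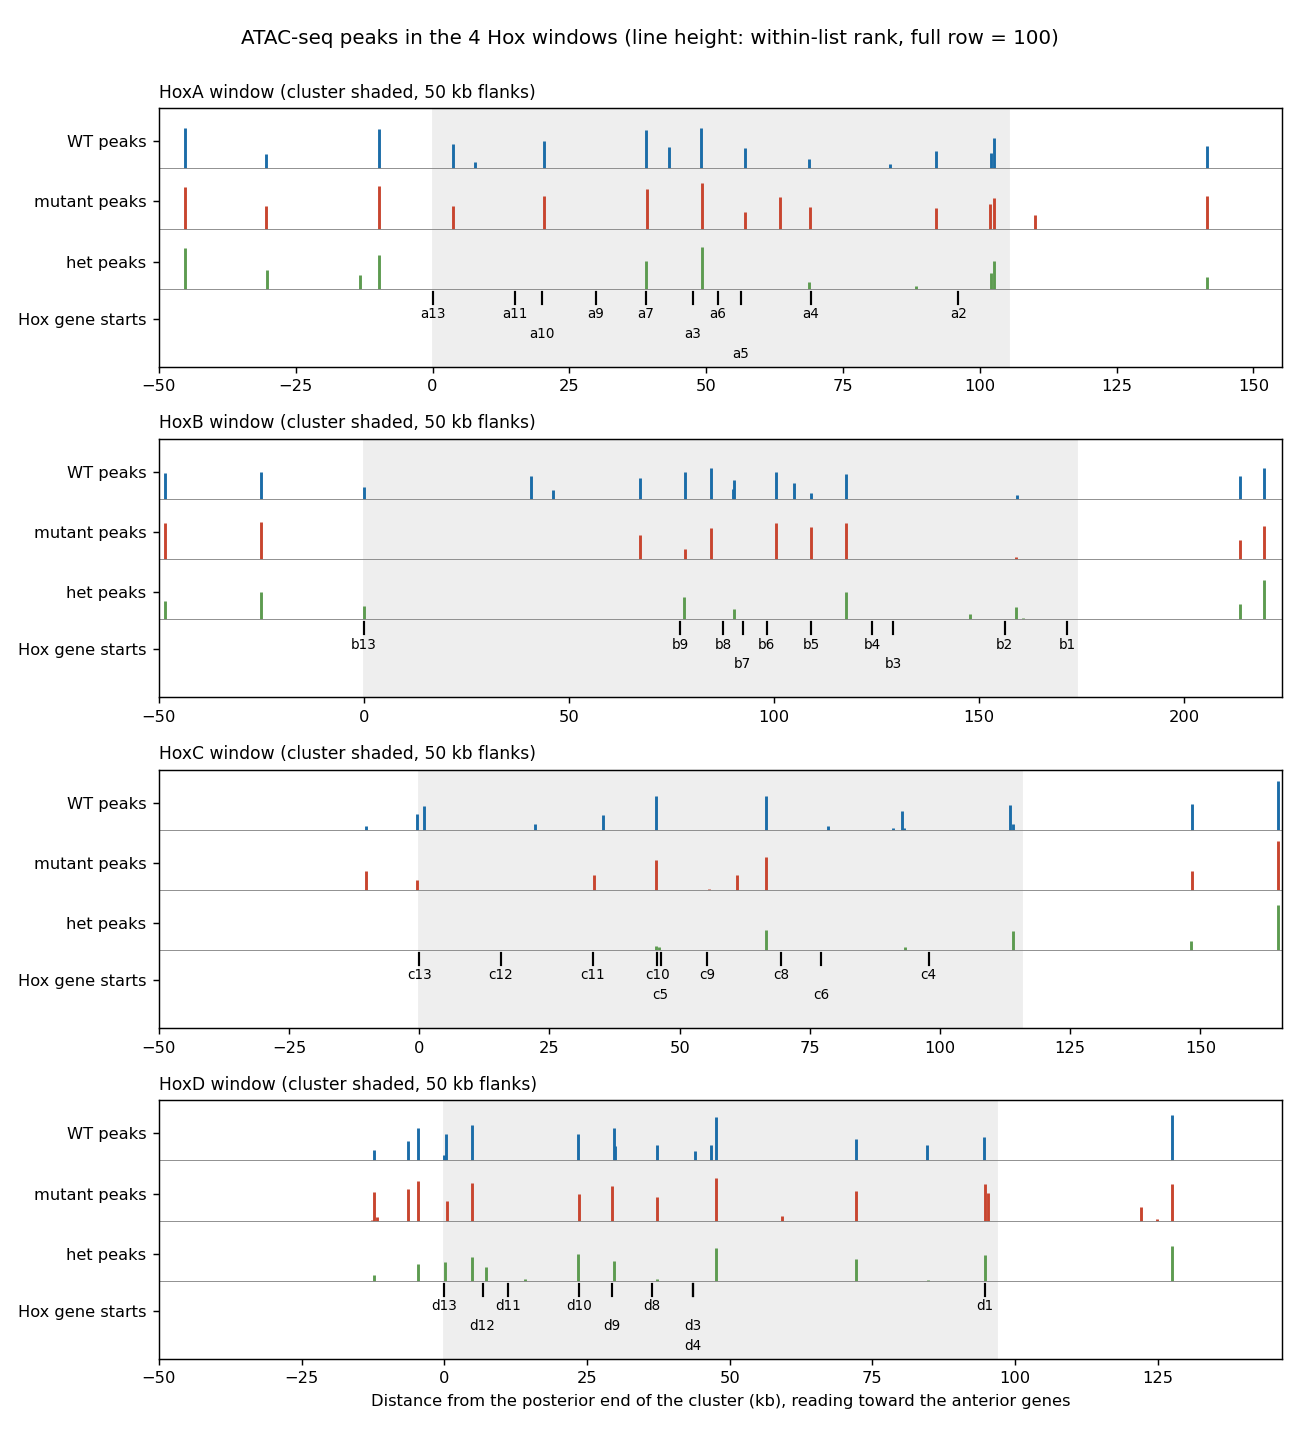
Peaks of the WT, mutant and het lists along the 4 Hox windows, with distance in kb from the posterior end of each cluster on the x axis and starts of Hox genes marked below (not every gene is marked). Line height is the within-list rank of the peak on a scale from 0 to 100, and the shaded part is the cluster. The tallest line in every list is that of the HoxC flank peak, and a stretch of 40.7 kb of HoxB next to Hoxb13 is empty in every list.

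Long stretches of the clusters held no peak in any list. The longest inside a cluster was 40.7 kb in HoxB (chr11:96194372-96235066), downstream of the start of Hoxb13, a gene set apart from the rest of its cluster. A stretch of 52.8 kb (chr11:96355018-96407838) ran from the anterior end of HoxB into its flank and held the 5′ end of Hoxb1, which is expressed in rhombomere 4 of the embryonic hindbrain. In HoxC the longest was 21.1 kb around Hoxc12, in HoxA 18.6 kb around the 5′ end of Hoxa9 and in HoxD 12.8 kb.

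Fewer Hox promoters than promoters of all protein-coding genes had a peak, and those peaks were low. In the WT list 21 of 39 Hox genes (53.8%, Wilson 95% interval 38.6 to 68.4%, counting error over genes only) had a peak within 1 kb of an annotated start, beside 70.1% of all protein-coding genes. In the mutant list 19 did (48.7%, 33.9 to 63.8%), beside 70.8%. In the het list 16 did (41.0%, 27.1 to 56.6%), beside 68.1%. Each interval lies below the share of all genes, which have a median of 3 annotated starts against 2 for Hox genes. With each list cut to its 81746 strongest peaks, 9 Hox genes in WT and 9 in mutant had a promoter peak, while the share of all protein-coding genes was 64.6% and 64.7%. Many Hox genes are rich in CpG, and CpG-rich promoters are usually open, so genes with at least 20 CpGs around a start, the Hox median, were set beside them after the data were seen. Of the 20 Hox genes at or above that count 12 had a WT peak and 12 a mutant peak, whereas 97.8% and 97.9% of the 11487 protein-coding genes at or above it had one.

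Hox promoter peaks in the WT list ran from 10 to 26 tags with a median of 14, and the median over all protein-coding genes with a promoter peak was 52. In the mutant list they ran from 9 to 26 tags with a median of 16, beside 54. Only 1 Hox gene in WT and 3 in mutant had a promoter peak whose -log10 q reached 10 (2.56% and 7.69%), against 60.5% and 62.0% of all protein-coding genes. The tallest Hox promoter peak in either list thus had fewer tags than the median promoter peak.

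**Figure D2:**
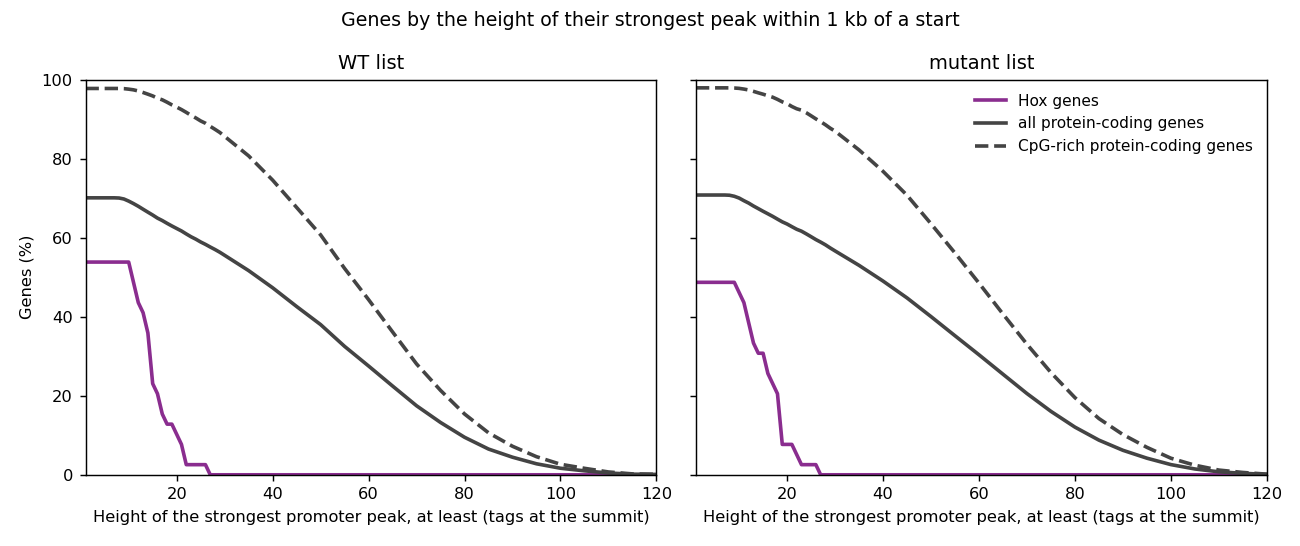
Percentage of genes (y axis) whose strongest peak within 1 kb of a start had at least the height on the x axis, in tags at the summit, for the 39 Hox genes, all 21938 protein-coding genes and the 11487 with at least 20 CpGs around a start. The Hox curves start at 53.8% in WT and 48.7% in mutant and end at 26 tags, a height that 58.3% of all protein-coding genes reach in WT and 59.5% in mutant.

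The strongest Hox promoter peak was that of Hoxa7, a central group gene of the trunk (chr6:52214491-52221854). Its main start was covered in all 3 lists: 26 tags and a -log10 q of 13.4 in WT (chr6:52221538-52221898), 26 tags and 13.7 in mutant, and 26 tags and 10.2 in het. The WT and mutant peaks were thus equal in height. A further WT peak lay at a start inside Hoxa7 (chr6:52217583-52217689, 16 tags, -log10 q 5.29) and had no mutant or het peak within 300 bp.

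Next came a peak upstream of Hoxc10 and of the start of a long Hoxc5 transcript that runs through much of HoxC. This peak (chr15:102966468-102966691) had 21 tags and a -log10 q of 9.81 in WT, 18 tags and 8.03 in mutant, and 15 tags and 3.25 in het. It counts for both genes, and the start of Hoxc10, a gene of lumbar motor neurons and hindlimb, is the nearest. Hoxd9, a posterior gene, had a WT peak of 20 tags (-log10 q 8.99, chr2:74697581-74698049), a mutant peak of 22 tags (10.3) and a het peak of 22 tags (7.02).

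A further 5 of the 10 strongest Hox promoters in WT were those of posterior or central genes, with 14 to 17 tags. Hoxb9 had 15 tags in WT (-log10 q 6.70), 11 in mutant (3.58) and 18 in het (8.04). Hoxa10 had 16 tags in WT (6.65) and 18 in mutant (8.78), with no het peak. Hoxd10 had 16, 17 and 24 tags in WT, mutant and het (6.49, 6.39 and 9.84). Hoxd13 had 17, 15 and 21 tags (6.36, 4.96 and 6.67). Hoxc4 had 14 tags in WT (5.91), no mutant peak, and 18 tags in het at another position. The het peak there overlapped a weaker WT peak of 10 tags (2.79). Among the genes given here the mutant value was higher than the WT value in some and lower in others.

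By cluster, HoxD had the highest share of open promoters and HoxB the lowest. In HoxD 7 of 9 genes had a peak in WT, 7 in mutant and 8 in het. In HoxB 4 of 10 had one in WT, 2 in mutant and 2 in het. HoxA had 5 of 11 in WT, 5 in mutant and 3 in het, and HoxC had 5 of 9, 5 and 3. By position, 3 of 8 anterior genes (groups 1 to 3), 10 of 15 central genes (groups 4 to 8) and 8 of 16 posterior genes (groups 9 to 13) had a WT peak. In mutant the counts were 3, 7 and 9, so no class of the axis was accessible throughout.

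Across the lists, 12 Hox genes had a promoter peak in all 3, among them Hoxa4, Hoxa7, Hoxb9, Hoxc10, Hoxd1, Hoxd9 and Hoxd13. A further 14 had none in any list: Hoxa2, Hoxa3, Hoxa6, Hoxa9, Hoxa11, Hoxa13, Hoxb1, Hoxb2, Hoxb3, Hoxb4, Hoxb7, Hoxb8, Hoxc8 and Hoxc12. The 14 include 5 of the 8 anterior genes, among them Hoxa2 and Hoxb2, which pattern rhombomeres and neural crest. Their CpG counts ran from 6 to 41 with a median of 16, beside 24 for the 12 genes with a peak in every list. Hoxa5, Hoxa10, Hoxb5, Hoxc13 and Hoxd4 had one in WT and mutant without het, and Hoxd11 and Hoxd12, at the posterior end of HoxD, in het alone.

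A promoter peak in only 1 of the WT and mutant lists was found for 6 Hox genes. These were 4 WT peaks without a mutant peak (10.3% of 39 genes, beside 1.23% of all protein-coding genes) and 2 mutant peaks without a WT peak (5.13%, beside 1.94%). All 6 peaks were low, and among all genes a peak in 1 list alone went with low height. Among genes with a peak in either list that was no taller than 26 tags, the tallest Hox height, 6 of 23 Hox genes (26.1%, 12.5 to 46.5%) and 681 of 2684 protein-coding genes (25.4%) had a peak in 1 list alone, a comparison chosen after the data were seen. By direction, 4 of the 23 had one in WT alone (17.4%, beside 9.72%) and 2 in mutant alone (8.70%, beside 15.6%). In WT alone of the pair were Hoxb6 (14 tags, -log10 q 4.28), Hoxb13 (11 tags, 3.66), Hoxc4 (14 tags, 5.91) and Hoxc6 (10 tags, 2.41). In mutant alone were Hoxc9 (9 tags, -log10 q 1.90) and Hoxc11 (12 tags, 4.02). The het list held a peak at Hoxb13 (14 tags, 5.21) and at Hoxc4 (18 tags, 6.82) and at none of the other 4. Of these 6 genes 4 belong to HoxC.

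Away from starts the windows held 31 WT peaks, 31 mutant peaks and 20 het peaks, with median -log10 q values of 5.79, 8.33 and 6.67. The medians of the peaks at starts were lower, at 4.51, 6.13 and 5.25. The tallest of all lay in the HoxC flank (chr15:103085828-103086327, intergenic, 16112 bp from the nearest start, that of Gm28876). It had 49 tags in WT and 49 in mutant, with -log10 q values of 30.1 and 31.5, and 62 tags in het (34.6). Scaled to the number of tags in each list, mutant over WT height had a ratio of 0.99 (exact interval from counting error 0.65 to 1.5). No other peak of the windows reached this height in any list.

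The strongest HoxD peak away from starts was lower in the mutant list. It lies in the flank beyond Hoxd1 (chr2:74795605-74795917, 30003 bp from the start of Mtx2) and had 28 tags in WT (-log10 q 22.2), 18 in mutant (11.2) and 25 in het (15.8). The ratio of mutant to WT height, scaled to the tags of each list, was 0.63 (0.33 to 1.19), an interval that includes 1. Next in HoxD were an intergenic peak between Hoxd13 and Hoxd12 (chr2:74673074-74673265), with 23 tags in WT, 25 in mutant and 24 in het, and a peak 4190 bp from Evx2 (chr2:74663524-74663814), with 21, 27 and 21. Evx2 is a homeobox gene at the end of HoxD that is co-regulated with the posterior genes.

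In HoxA the strongest peak away from starts lay 7412 bp from Evx1, the homeobox gene at the HoxA end (chr6:52305861-52306347). It had 24 tags in WT (-log10 q 15.0), 26 in mutant (16.7) and 38 in het (24.1). A peak between Hoxa6 and Hoxa7, in an intron of long Hoxa3 transcripts (chr6:52211613-52211875), had 26 tags in WT (15.0), 32 in mutant (22.7) and 39 in het (24.3). A peak 7882 bp from the start of the long non-coding gene Hottip (chr6:52270551-52270769) had 23, 26 and 26 tags. All 3 were present in every list.

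HoxB and the rest of HoxC had only modest peaks of this kind. In HoxB the strongest lay between Hoxb9 and Hoxb8 (chr11:96278903-96279077), with 16 tags in WT (-log10 q 8.32) and 16 in mutant (8.33) and no het peak. A peak 47609 bp from Hoxb1 (chr11:96413557-96413937) had 15 tags in WT, 16 in mutant and 30 in het, and a peak in an intron of Hoxb6 (chr11:96294635-96294758) had 15 in WT, 19 in mutant and none in het. In HoxC a peak in an intron of the long Hoxc5 transcript, 3002 bp from Hoxc8, (chr15:102987535-102987808) had 21, 19 and 20 tags, and a flank peak at chr15:103069237-103069552 had 13, 11 and 12. All 12 of these strongest peaks, 3 in each window, had a mutant peak, and 10 had a het peak.

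Whether peaks were gained or lost with Chd7 was read from the overlap of the lists by at least 1 bp. Of 65 WT peaks in the windows, 21 had no mutant peak (32.3%, 22.2 to 44.4%), beside 22.8% of all WT peaks. Of 54 mutant peaks, 10 had no WT peak (18.5%, 10.4 to 30.8%), beside 30.7%. Each interval, of counting error over peaks, includes the share of the whole list. All 21 WT peaks without a partner lay inside the clusters (21 of 49, 42.9%, 30 to 56.7%), an interval above the share of all WT peaks. Peaks inside the clusters were also weaker, with a median -log10 q of 4.72 beside 6.66 for all WT peaks. In the flanks 0 of 16 lacked a partner, which allows a share of up to 18.8%.

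Peaks that lacked a partner had low -log10 q, so peaks of like strength were set beside each other, a comparison chosen after the data were seen. Their median -log10 q was 3.28 in the windows, against 6.24 for WT peaks with a partner. Among WT peaks with a -log10 q under 3, 9 of 12 in the windows lacked a mutant peak (75.0%), beside 64.0% of all such WT peaks. From 3 to 5 it was 8 of 18 (44.4%), beside 40.8%, and from 5 to 10 it was 4 of 27 (14.8%), beside 13.5% of all. At 10 or more 0 of 8 did, which allows a share of up to 37.5%, beside 0.456%. Mutant peaks of the windows lacked a WT peak in 5 of 7, 4 of 11, 1 of 21 and 0 of 15 (up to 20%) in the same bins, beside 74.3%, 59.2%, 25.1% and 1.21%.

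**Figure D3:**
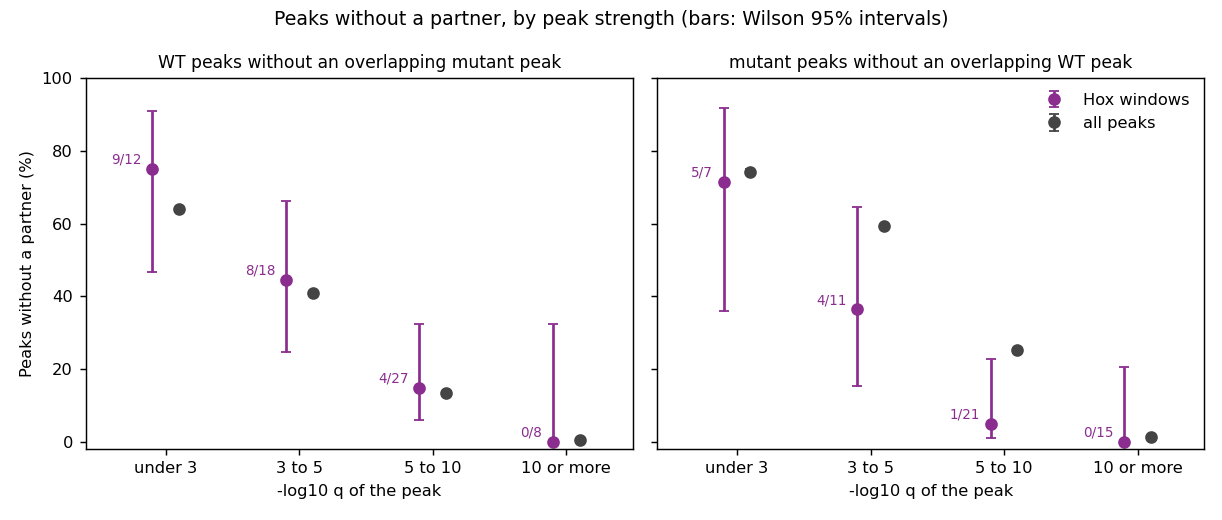
Percentage of peaks without an overlapping peak of the other list (y axis), by -log10 q of the peak (x axis), for WT peaks against mutant and for mutant peaks against WT. Points are the Hox windows with their counts and the whole lists, and bars are Wilson 95% intervals. In WT the Hox points lie above the whole list in the bins under 10 (75.0% beside 64.0% in the lowest), and in mutant they lie below it in every bin.

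HoxC had the most WT peaks without a mutant peak, 9 of 15 (60%, 35.7 to 80.2%), against 3 of 16 in HoxA, 5 of 17 in HoxB and 4 of 17 in HoxD. Over all WT peaks the share was 22.8%. The median -log10 q of these 9 was 2.90, and 64.0% of all WT peaks under 3 lacked a mutant peak. HoxC alone was not set beside peaks of like strength. In the other direction 3 of 9 mutant peaks in HoxC lacked a WT peak, 2 of 15 in HoxA, 0 of 12 in HoxB (up to 25.0%) and 5 of 18 in HoxD. Over all mutant peaks the share was 30.7%. The HoxC peaks without a mutant partner stood at or near Hoxc13, Hotair, Hoxc11, Hoxc6, Hoxc5 and Hoxc4.

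Only 5 peaks of -log10 q 5 and above had no peak of the other list within 300 bp. Of these, 4 belonged to the WT list (4 of 35, 11.4%, beside 4.96% of all such WT peaks) and 1 to the mutant list (1 of 36, 2.78%, beside 9.84%). The WT peaks were the one inside Hoxa7 given above, 1 at the edge of the Hoxc13 promoter (chr15:102921996-102922109, 14 tags, -log10 q 5.80), 1 at an inner start of Hoxc4 (chr15:103034566-103034663, 14 tags, 5.91) and 1 in the wide gap between Hoxb13 and Hoxb9 (chr11:96235067-96235177, 12 tags, 5.37). The mutant peak (chr6:52197412-52197534, 15 tags, 8.18) lay between Hoxa4 and Hoxa5 inside the long non-coding gene Hoxaas3. Of the 5, the Hoxc4 peak alone had a het peak within 300 bp.

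Against the het list, 28 of 65 WT peaks (43.1%, 31.8 to 55.2%) had no partner, beside 36.9% of all WT peaks. Of 54 mutant peaks 21 had none (38.9%, 27.0 to 52.2%), beside 41.3%. Of 43 het peaks, 8 had no WT peak (18.6%, 9.74 to 32.6%), beside 13.3%, and 11 had no mutant peak (25.6%, 14.9 to 40.2%), beside 10.7%. The last interval lies above the share of the whole list. Of those 11 het peaks, 10 lay inside the clusters, and their median -log10 q was 3.01.

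Peaks of the 3 lists joined within 300 bp gave 74 regions in the windows. All 3 lists held 31 of them (41.9%, 31.3 to 53.3%), beside 45.7% of the 190582 regions of the genome. WT alone held 14 (18.9%, beside 13.3%), mutant alone 8 (10.8%, beside 20.1%), het alone 6 (8.11%, beside 3.52%), WT and mutant 11 (14.9%, beside 12.7%) and WT and het 4 (5.41%, beside 1.66%). No region of the windows was held by het and mutant without WT, beside 3.03% of the genome. With only 74 regions this does not set the windows apart from that share. HoxD had the most regions held by every list, 11 of 20, and HoxC the fewest, 4 of 17.

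Heights of the shared peaks were close in WT and mutant. For the 44 WT peaks of the windows with a mutant partner, the median log2 ratio of mutant over WT height, scaled to the tags of each list, was 0.10 (order-statistic 95% interval -0.02 to 0.24), beside 0.08 for all 118098 shared peaks. Of the 44, 27 were higher in mutant (61.4%), beside 57.6%. Ratios ran from -0.72 to 0.74 on the log2 scale. With a call set at 1.5-fold from the median of all shared peaks, 2 were called higher (4.55%, beside 6.22% of all shared peaks) and 2 lower (4.55%, beside 5.1%). None of the 44 ratios had a counting interval that left out 1, as WT heights ran from 8 to 49 tags with a median of 15.

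The 2 peaks called higher stood at promoters. At Hoxb5 (chr11:96303190-96303279), a trunk gene, height was 11 tags in WT (-log10 q 2.93) and 18 in mutant (8.94), a ratio of 1.62 (0.72 to 3.79), with no het peak. At the second WT peak over Hoxd9 (chr2:74698169-74698450) it was 13 tags in WT (3.76) and 22 in mutant (10.3), a ratio of 1.67 (0.81 to 3.61). The mutant partner of that peak is 1 wide peak that also overlaps the taller WT peak of 20 tags at Hoxd9, so the ratio there compares parts of the same region. Called lower were the HoxD flank peak given above and a peak in an exon of Hoxb8 (chr11:96284584-96284689), with 13 tags in WT (4.72) and 8 in mutant (1.76).

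By cluster the median log2 ratio was 0.15 in HoxA (13 peaks), 0.09 in HoxB (12 peaks), -0.15 in HoxC (6 peaks) and 0.19 in HoxD (13 peaks). Their intervals were -0.10 to 0.28, -0.19 to 0.45, -0.26 to 0.44 and -0.12 to 0.53. Each included 0, and each included the median of all shared peaks. In HoxC 1 of 6 shared peaks was higher in mutant, against 9 of 13, 7 of 12 and 10 of 13 in the other 3 clusters.

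**Figure D4:**
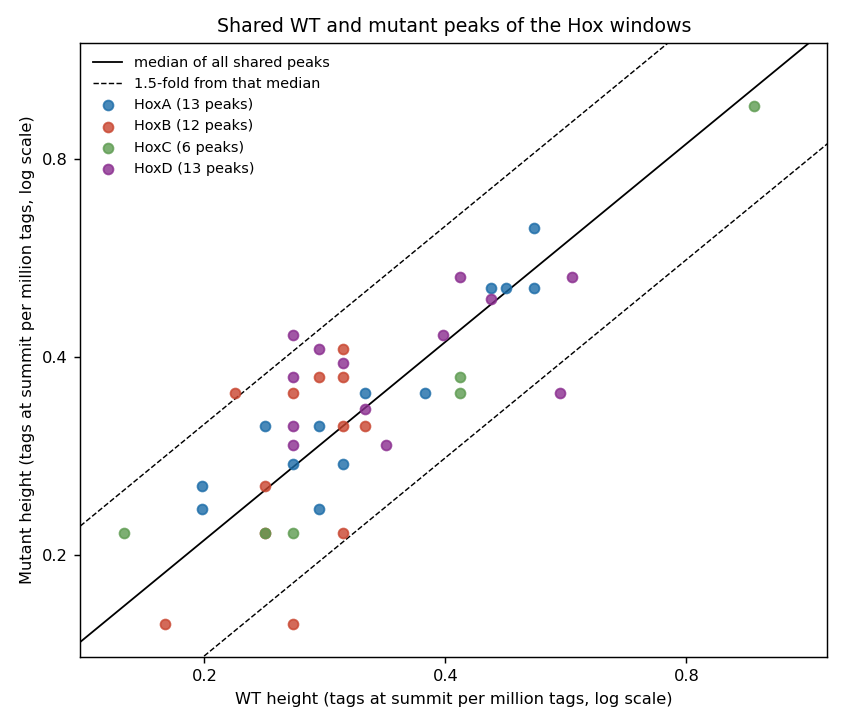
Height of the 44 shared peaks of the Hox windows in WT (x axis) and mutant (y axis), in tags at the summit scaled to the size of each list, on log scales, coloured by cluster. The solid line is the median ratio of all shared peaks and the dashed lines are 1.5-fold away from it. Of the 44 points, 2 lie above the upper and 2 below the lower dashed line, and the point at the top right is the HoxC flank peak.

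Motifs were searched in the 301 bases around each summit on both strands. The letters CCANNAGNNGGC, taken from the core of the CTCF site, were found at 6 of 65 WT peaks of the windows (9.23%, 4.30 to 18.7%), beside 7.03% of all WT peaks, and at 5 of 54 mutant peaks (9.26%, 4.02 to 19.9%), beside 6.87%. The 6 WT matches are shown because 4 of them lie within 38 bp of the summit, each on the strand that reads the core, with the 12 bases of the core in capitals and 9 bases on either side.
Hoxa7 core: aagaaaattCCAGGAGATGGCagtgtggct
Hoxa10 core: tcgcagccgCCACGAGATGGCgcactcccg
Hoxb6 core: tcctattacCCACCAGCCGGCggcggctac
Evx2 core: cctctggttCCAAAAGCTGGCcaagtacga
Hoxd12 core: gccaaacgcCCAGGAGATGGCgagcgtgct
Hoxd3os1 core: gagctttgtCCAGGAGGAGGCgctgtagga
The cores at Hoxa7 (chr6:52221800-52221829, minus strand) and Hoxa10 (chr6:52240532-52240561, minus strand) lay 5 bp from their WT summits. The core between Hoxd13 and Hoxd12 (chr2:74673169-74673198, minus strand) lay 38 bp away and that near Hoxd3os1 (chr2:74715912-74715941, plus strand) 30 bp away. The Hoxa7 core and the Hoxd12 core are identical over the 12 bases. The matches near Hoxb6 (chr11:96299345-96299374, plus strand) and Evx2 (chr2:74662106-74662135, plus strand) lay just outside their WT peaks, the latter 93 bp from the summit.

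The peaks at the 4 close cores were present in WT and mutant at similar height. The Hoxd3os1 peak (chr2:74715777-74716067), at the start of an antisense transcript of Hoxd3, was the strongest inside any cluster in WT, with 29 tags (-log10 q 18.7), and had 27 tags in mutant (17.2) and 27 in het (14). The Hoxa7 peak had 26 in each list, the peak between Hoxd13 and Hoxd12 had 23 in WT, 25 in mutant and 24 in het, and the Hoxa10 peak had 16 in WT and 18 in mutant. The 2 distant matches lay beside a WT peak of 14 tags at Hoxb6, with no mutant peak, and one of 15 tags near Evx2, with 20 in mutant. A match of letters is not a measured binding site.

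Other letters known from Hox regulation were rare. The composite site of Pbx and Hox proteins (TGATTNAT) was found at 0 of 65 WT peaks, which allows a share of up to 4.62%, beside 3.65% of all WT peaks, at 0 of 54 mutant peaks, up to 5.56%, beside 3.71%, and at 1 of 43 het peaks, beside 3.56%. The retinoic acid response elements, direct repeats with 5 or 2 bp between the repeated parts, matched no window peak of any list. In WT 0 of 65 allows a share of up to 4.62%, beside 0.0667% and 0.0876% of all WT peaks, so no difference was detectable with so few peaks.

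Other genes with a start in the windows numbered 24, of which 20 are long non-coding. Of the 20, 7 had a WT peak within 1 kb of a start, 6 a mutant peak and 9 a het peak. Hoxd3os1 had 3 WT peaks, Hotairm1, Gm28793 and Haglr 2 each, and Hoxaas2, Gm53 and Gm14424 had 1. Haglr shares its start region with Hoxd1, where the strongest peak had 14 tags in WT (-log10 q 5.62), 21 in mutant (11.3) and 20 in het (9.09). Hotair, Hottip, Hoxa11os, Hoxaas3, Hoxb5os, Gm11535, Gm14396, Gm14426 and Gm29430 had none in any list. Gm15050, Gm11536, Hoxb3os and Gm28309 had 1 het peak each and none in WT or mutant. Of the 4 protein-coding genes, 5730596B20Rik had 1 WT peak, Gm28230 had 1 mutant peak, and Gm28308 and Evx2 had none.

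The cofactors and regulators of Hox genes had taller promoter peaks than the Hox genes, but so did most protein-coding genes. Of all protein-coding genes 70.1% had a promoter peak in WT, and 58.3% had one of at least 26 tags, the tallest Hox height. All 9 genes of the TALE homeodomain cofactors, which bind DNA together with Hox proteins, had a promoter peak in each list, at 37 tags or more in WT and 38 or more in mutant. Meis1 had 75 tags in WT, 82 in mutant and 114 in het. All 13 Polycomb genes, which repress the clusters, had one in each list, at 28 to 101 tags in WT and 22 to 106 in mutant. Of 7 genes of trithorax and histone demethylase function 6 had one, at 39 to 91 tags in WT and 34 to 103 in mutant, and Kdm6b, an H3K27 demethylase, had none. The 5 genes of cluster architecture, CTCF and cohesin with its loader, had 58 to 81 tags in WT and 57 to 83 in mutant. The shortest promoter peak among the TALE, demethylase, trithorax and architecture genes was taller than the tallest Hox promoter peak in WT and mutant. Median heights in WT were 65 tags for TALE, 55 for Polycomb, 56.5 for trithorax and demethylase and 66 for architecture genes. The median over all protein-coding genes with a promoter peak was 52.

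Genes upstream of Hox expression were more mixed. Of 8 retinoic acid genes 7 had a WT peak and 7 a mutant peak, with medians of 21 and 27 tags. Cyp26b1, an enzyme that degrades retinoic acid, had 19 tags in WT (-log10 q 6.32), 41 in mutant (23.3) and 39 in het (16.8). Named after its values were seen, it had the widest gap of these genes with a peak in both lists, and the difference was not tested. Rara (28 and 33), Rarg (20 and 22), Rxra (21 and 26) and Aldh1a2 (26 and 27) had more tags in mutant, Rarb (50 and 45) fewer. Cyp26a1 had a peak in mutant alone, Cyp26c1 in WT and het. Of 8 hindbrain and axial regulators 6 had a WT peak, 6 a mutant peak and 5 a het peak. Egr2, which sets up rhombomeres, had 63 tags in WT and 58 in mutant. Cdx1, a regulator of trunk Hox genes, had none, while Cdx2 had 11 tags in WT alone.

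All 4 homeobox genes of the rostral brain chosen for contrast had a promoter peak in each list. En1 had 52 tags in WT and 58 in mutant, En2 51 and 56, Otx2 24 and 26, and Gbx2, which marks the rostral hindbrain, 17 and 19. En1 and En2 are known for their part in forming the cerebellum. Evx1 and Evx2, at the ends of HoxA and HoxD, had no promoter peak in any list, as did 14 of the 39 Hox genes.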

How the data were processed

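The files are 3 peak lists, 1 per genotype, each called by the authors with MACS2 2.1.0.20150731 on the pooled libraries without a control, at a q cutoff of 0.05 and with a regional background window of 10000 bp. The deposited columns used are the pileup signal at the summit (here height in tags), the fold enrichment over the local background, and the -log10 q value. The submitters' processing notes name Trim Galore 0.4.1, Picard 1.139, Bowtie 1.0.0 and STAR 2.5.0b. Per the file headers, the WT and mutant lists came from a folder named for STAR and the het list from one named for bowtie with a shift of -100 bp, whereas the study's methods describe bowtie throughout. The deposited lists hold 152984, 174407 and 106974 peaks from 50394313, 51030229 and 30923002 tags, and the 8 libraries cannot be told apart in them, so that the spread between libraries is unknown.

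Lists were compared by overlap of at least 1 bp, with a partner taken as the tallest overlapping peak, after heights were scaled to the tags of each list. Calls needed 1.5-fold from the median of all shared peaks, with no test. Promoters were the 1 kb on either side of annotated starts (GENCODE, mm10). Intervals are Wilson 95% intervals for shares and exact intervals for ratios, and cover counting error only. Where a count was nil, the upper limit given in the text is 3 counts over the number of peaks, not a Wilson limit. Python 3.11.15, numpy 2.4.6, pandas 2.3.3, scipy 1.17.1, pysam 0.24.0, bedtools 2.31.1 and matplotlib 3.10.9 were used. Overlaps, height calls, joined regions, promoter peaks and motif matches were tested on simulated data. Named in the text, by rule, were the 10 Hox genes with the strongest WT promoter peaks, Hox genes with a promoter peak in 1 of the WT and mutant lists, the 3 strongest WT peaks away from starts in each window, peaks of -log10 q 5 and above with none of the other list within 300 bp, shared peaks of that strength called higher or lower, and other genes with a start in the windows, while others were named after their values were seen. The members, gene lists and motifs were chosen with earlier results of these data known. Other overlaps, thresholds, distances and list lengths were tried. Some genes that the rule or the lists cover are counted but not reported by name here.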

Additional observations from a re-analysis of the deposited data

How the results depend on the processing

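No paired analysis was possible because each list pools its libraries, and for the same reason no library could be left out. Of 95 alternative values for 28 results, 67 stayed close to the reported value and 28 moved. Close meant within 1.5-fold for counts and densities, and inside the 95% interval of the reported value for shares and medians. Those intervals are wide. With a reciprocal overlap of 50%, 52.3% of WT peaks overlapped a mutant peak and 41.5% a het peak, and 63.0% of mutant peaks and 62.8% of het peaks overlapped a WT peak. Shares over all peaks are not given for this overlap, nor for the equal lists below. Among window peaks of -log10 q 5 and above, 88.6% in WT overlapped a mutant peak (all such WT peaks 94.2%). A het peak was overlapped by 71.4% (84.2%). In mutant 97.2% overlapped a WT peak (88.8%) and 75% a het peak (79.3%). In het 93.1% overlapped a WT peak (96.4%) and 86.2% a mutant peak (97.5%). Only the intervals of WT against het (54.9 to 83.7%) and het against mutant (69.4 to 94.5%) left out the share of all peaks. With each list cut to its 81746 strongest peaks, 82.6% of WT peaks had a mutant peak and 78.3% a het peak, and 62.1% of het peaks had a WT peak. Hox genes with a promoter peak then numbered 9 in WT and 9 in mutant (all protein-coding genes 64.6% and 64.7%), and 12 in mutant at a -log10 q of 5 (67.4%), so that the Hox counts fell by more than the share of all genes. Regions in all 3 lists numbered 19 at a -log10 q of 5 and 15 in equal lists, those of WT alone 5 and 1, those of WT and mutant 7 and 4, and those of mutant alone 4 in equal lists. At a -log10 q of 5 there were 3.92 WT peaks per 100 kb in the windows and 4.88 inside the clusters. Mutant peaks numbered 4.88 per 100 kb inside the clusters and 3 in the flanks. With 100 bp either side of the summit, median GC was 64.2% and the median CpG count 14 in WT. The stricter cuts leave fewer peaks by construction, and the cause of the moves was not tested further.

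Depth limits the single values, since heights of 8 to 49 tags give ratios with wide counting intervals. The lists give no height where no peak was called, so the size of a difference at a peak of 1 list alone could not be measured.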

Other observations

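The windows also hold 7 annotated microRNA genes, described after their values were seen. The microRNAs of the Hox clusters repress Hox messages, and they fall into families by their seed (bases 2 to 8), shown in capitals in the mature sequences from RefSeq.
mmu-miR-10a-5p: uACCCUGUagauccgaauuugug
mmu-miR-10b-5p: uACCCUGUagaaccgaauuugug
mmu-miR-196a-5p: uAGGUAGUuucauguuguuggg
mmu-miR-196b-5p: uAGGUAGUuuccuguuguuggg
The miR-10 pair shares a seed, as does the miR-196 pair. Of the 7 genes, Mir615, in HoxC, had a summit within 1 kb of its 5′ end, at 653 bp in WT and 509 bp in het. Both peaks were weak, with 11 tags and a -log10 q of 1.99 in WT, a rank of 2.47 in its list, and 14 tags and 3.01 in het. In the mutant list the nearest summit to Mir615 was 27310 bp away. For Mir10a the nearest summit lay 5405 bp away in WT and 5411 bp in mutant, and for Mir196b it lay 8355 and 8409 bp away. For Mir10b it lay 10113 bp away in WT and 1417 bp in mutant. That mutant peak was also weak, with 10 tags, a -log10 q of 2.77 and a rank of 9.02 in its list.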
